A study of Homo sapiens with 16 samples.

Results

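The mitochondrial ribosomal protein genes are the nuclear genes whose products form the ribosome inside mitochondria. Members were taken from the gene annotation in the deposited tables: every protein-coding gene whose symbol begins with MRPL or MRPS followed by a digit, without a hyphen, in the tables of both cell lines. This rule found 78 genes of 58735 listed, of which 19951 were protein-coding, and it used no measured value. It left out 77 other entries with such names that were not protein-coding, 75 of them pseudogenes. By their known place in the particle, 26 members belong to the small subunit and 51 to the large subunit, with MRPS18A and MRPS30 counted as large subunit proteins. MRPS36 carries the family name but is a part of the 2-oxoglutarate dehydrogenase complex. Of the 77 ribosomal members, 48 have a counterpart in bacterial ribosomes and 29 are found only in mitochondria, without such a counterpart.

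Mitochondrial ribosomes translate the few proteins that the mitochondrial genome encodes, all of them core subunits of the respiratory chain and of ATP synthase. Their ribosomal RNAs are transcribed inside the organelle, while every one of their proteins is translated in the cytosol and imported, so the particle is built from the products of both genomes. The small subunit decodes the messenger RNA, and the large subunit joins amino acids and releases the new protein beside the inner membrane.

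RNA was sequenced from the human breast cancer lines MDA-MB-231 and SUM159PT, both triple-negative, established and labelled wild type. Cells were transfected by lipofection with a guide RNA that is non-targeting (sgNTS) or one against YES1 (sgYES1), which encodes a Src-family tyrosine kinase, and were collected at 48 h. Each of the 4 groups held 4 replicates, which gave 16 libraries of poly-A RNA. MDA-MB-231 was grown in RPMI and SUM159PT in Ham/F12, and the nuclease or other protein used with these guides was not given in the sources used here. By its title, the series concerns YES1, the accuracy of mitosis and taxanes, and no taxane is named for these samples. Nothing in the labels says that replicates came from separate cultures, so the p-values measure only how far these samples spread, which may be technical.

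Library totals, in units of 1e6 counts, were 17.2 to 25.1 in MDA-MB-231 and 14.4 to 20.9 in SUM159PT. YES1 was lower with sgYES1 in every library: it read 107, 109.6, 107 and 113 CPM (read counts relative to library size, after TMM scaling within a line) in MDA-MB-231 sgNTS against 41.6, 42.9, 44.3 and 43.7 with sgYES1, a fall of 2.53-fold (log2 fold change -1.34, SE 0.04, edgeR adjusted p = 2.76e-11). In SUM159PT it read 97.9, 93.8, 90.6 and 89.4 against 40.18, 39.996, 39.03 and 38.3, a fall of 2.36-fold (log2 fold change -1.24, SE 0.05, adjusted p = 1.65e-13). MDA-MB-231 sgNTS replicate 4 stood apart from its group, with 2.34% of its counts from the mitochondrial genome where the other 3 libraries had 3.81% to 5.15%, so the main counts for that line are also given without it. The share was 3.78% to 5.08% in MDA-MB-231 sgYES1 and 3.42% to 3.72% in SUM159PT. Leukocyte markers summed to 44.5 to 48.4 CPM in MDA-MB-231 sgNTS libraries and 49.7 to 52.5 CPM in sgYES1, with 4 and 3 of 12 at 0, and to at most 1.83 CPM in SUM159PT, with 7 of 12 at 0. Only 1 of the 12 had a mean of at least 1 CPM in MDA-MB-231 sgNTS, 3 did in sgYES1, and 0 did in SUM159PT. Endothelial and fibroblast markers summed to 31.1 to 36.8 and 42.5 to 43.7 CPM in MDA-MB-231, with none of 9 at 0, and to 72.9 to 75.7 and 66.2 to 84.4 CPM in SUM159PT. Of these 9, 5 and 6 had a mean of at least 1 CPM in MDA-MB-231, and 4 and 5 in SUM159PT. Epithelial and mesenchymal markers of breast lines summed to 2572 to 2668 and 2076 to 2243 CPM in MDA-MB-231 and to 2650 to 2742 and 2545 to 2705 CPM in SUM159PT. The receptor genes ESR1 and PGR were below the filter in both lines. The part of these markers in the results was not tested.

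Promoters of 69 members were found in RefSeq (GRCh38.p14, 250 bases before the start site to 50 after it). Those of 5 members are printed, from the genes on which the results below turn. By the calls given below, 2 of these rose in both lines, 2 fell in both, and 1 differed in response between lines. They hold between 0 and 2 matches of the cores that capitals mark. MRPS7 and MRPL55, which rose in both lines, and MRPL24, whose response differed, hold 0 such matches and are not printed. Capitals mark the cores of an ETS and GABP site (CCGGAAG), an NRF1 site and a YY1 site, on either strand, all of them factors known for binding promoters of nuclear genes for mitochondria. MRPL36 lies at chr5:1799788-1800087, minus strand, MRPS18C at chr4:83455808-83456107, plus strand, MRPL42 at chr12:93467264-93467563, plus strand, MRPS10 at chr6:42217812-42218111, minus strand, and MRPL27 at chr17:50373135-50373434, minus strand.
MRPL36: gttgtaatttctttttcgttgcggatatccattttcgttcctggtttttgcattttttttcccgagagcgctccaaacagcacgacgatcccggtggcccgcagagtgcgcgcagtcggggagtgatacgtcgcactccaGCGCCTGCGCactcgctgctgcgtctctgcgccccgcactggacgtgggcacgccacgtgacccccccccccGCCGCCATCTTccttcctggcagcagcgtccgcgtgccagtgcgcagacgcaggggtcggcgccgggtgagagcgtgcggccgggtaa
MRPS18C: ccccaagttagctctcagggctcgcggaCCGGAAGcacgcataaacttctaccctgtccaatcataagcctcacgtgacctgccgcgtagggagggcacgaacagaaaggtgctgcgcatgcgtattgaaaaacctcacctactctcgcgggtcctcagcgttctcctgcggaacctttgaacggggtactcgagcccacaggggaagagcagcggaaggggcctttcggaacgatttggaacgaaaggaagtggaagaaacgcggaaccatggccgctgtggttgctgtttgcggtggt
MRPL42: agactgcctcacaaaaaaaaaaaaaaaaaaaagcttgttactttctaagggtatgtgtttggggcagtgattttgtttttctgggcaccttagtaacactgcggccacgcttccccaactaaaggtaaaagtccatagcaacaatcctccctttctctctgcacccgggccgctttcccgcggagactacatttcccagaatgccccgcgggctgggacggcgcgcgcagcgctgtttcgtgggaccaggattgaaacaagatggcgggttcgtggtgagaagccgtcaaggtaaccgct
MRPS10: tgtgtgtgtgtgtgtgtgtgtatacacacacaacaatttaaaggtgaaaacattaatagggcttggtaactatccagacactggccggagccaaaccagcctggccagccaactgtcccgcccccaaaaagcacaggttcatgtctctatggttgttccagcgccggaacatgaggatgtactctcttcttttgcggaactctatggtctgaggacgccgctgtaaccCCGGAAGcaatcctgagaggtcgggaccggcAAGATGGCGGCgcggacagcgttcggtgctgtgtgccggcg
MRPL27: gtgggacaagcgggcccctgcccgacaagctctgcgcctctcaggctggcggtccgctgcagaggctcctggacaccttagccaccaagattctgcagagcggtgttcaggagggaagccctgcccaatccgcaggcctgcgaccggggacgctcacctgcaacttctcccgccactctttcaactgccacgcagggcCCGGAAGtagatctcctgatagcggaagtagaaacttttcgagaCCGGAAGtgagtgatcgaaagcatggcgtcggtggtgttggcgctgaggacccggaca

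The ETS and GABP core was the most frequent of these motifs in the members' promoters. It stood in 30 of 69 (43.5%), against 16.5% of all 15842 protein-coding genes with promoters of that length. A gene was counted if any of its listed start sites held the motif, and 11 of the 69 members have more than 1. The YY1 core stood in 10 (14.5% against 1.58%), the NRF1 core in 9 (13.0% against 9.66%), and the CACGTG box bound by MYC in 9 (13.0% against 10.9%). At least 1 of the ETS and GABP, NRF1 and YY1 cores was present in 43 members (62.3% against 24.9%). A match of these letters is a description of the sequence and not a site or a cause. Motif overlaps were not removed, so 1 promoter can hold several, as that of MRPS10 holds an ETS and GABP core and a YY1 core. MRPL27 holds 2 ETS and GABP cores, at bases 199 and 243 of its printed sequence.

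A head-to-head neighbour was also frequent among members. A protein-coding gene on the opposite strand started within 1000 bases for 19 members (24.4%, against 8.82% of all protein-coding genes). Those neighbours included genes with mitochondrial products, such as NDUFS6 beside MRPL36, NDUFB5 beside MRPL47 and TWNK, the mitochondrial DNA helicase, beside MRPL43. MRPL46 and MRPS11 form a pair within the family.

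Levels of different genes are compared as TPM, counts per kilobase of gene length scaled to the same total in every library. Every member was detected in every library, and all 78 passed the filter on low counts in each line. In control libraries the median member stood at 68.5 TPM in MDA-MB-231 and at 77.5 TPM in SUM159PT. The highest in MDA-MB-231 was MRPL14, a large subunit protein at the interface of the subunits, at 425 ± 29.6 TPM (SD, n = 4), then MRPS34 at 322 ± 22.5, MRPL41 at 289.98 ± 19.5 and MRPS10 at 265 ± 12.01. The lowest MRPL14 library was above the highest MRPS34 library, while MRPS34 and MRPL41 overlapped between libraries, as did MRPL41 and MRPS10. In SUM159PT, MRPS34 was highest at 873 ± 9.33 TPM, followed by MRPL41 at 497 ± 13.5, MRPS26 at 409.5 ± 26.8 and MRPL3 at 383 ± 5.06. There the libraries of MRPS26 and MRPL3 overlapped, and those of MRPS34 and MRPL41 stood clear of the next gene down.

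At the low end, MRPS24 stood at 1.95 ± 0.323 TPM in MDA-MB-231 and 2.95 ± 0.607 TPM in SUM159PT. MRPL38, MRPL46 and MRPL53 were the other 3 of the lowest 4 in both lines, at 3.96 to 8.92 TPM in MDA-MB-231 and 3.50 to 4.89 TPM in SUM159PT. These 4 low readings belong to genes whose annotated coding sequence is largely shared. At least 50% of the coding bases lay in exons of other genes, on either strand, for 8 members (10.3%, against 7.95% of all protein-coding genes). These were MRPS17 and MRPL53 (100%), MRPL12 (96.0%), MRPL30 (95.3%), MRPL38 (94.1%), MRPS24 (92.2%), MRPL46 (64.0%) and MRPS28 (53.0%). For each of them, the gene with the largest exon overlap was on the same strand. Settings for reads over shared bases were not given in the sources used here. Levels of these 8 are therefore uncertain, and their part in the results was not tested.

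**Figure D1:**
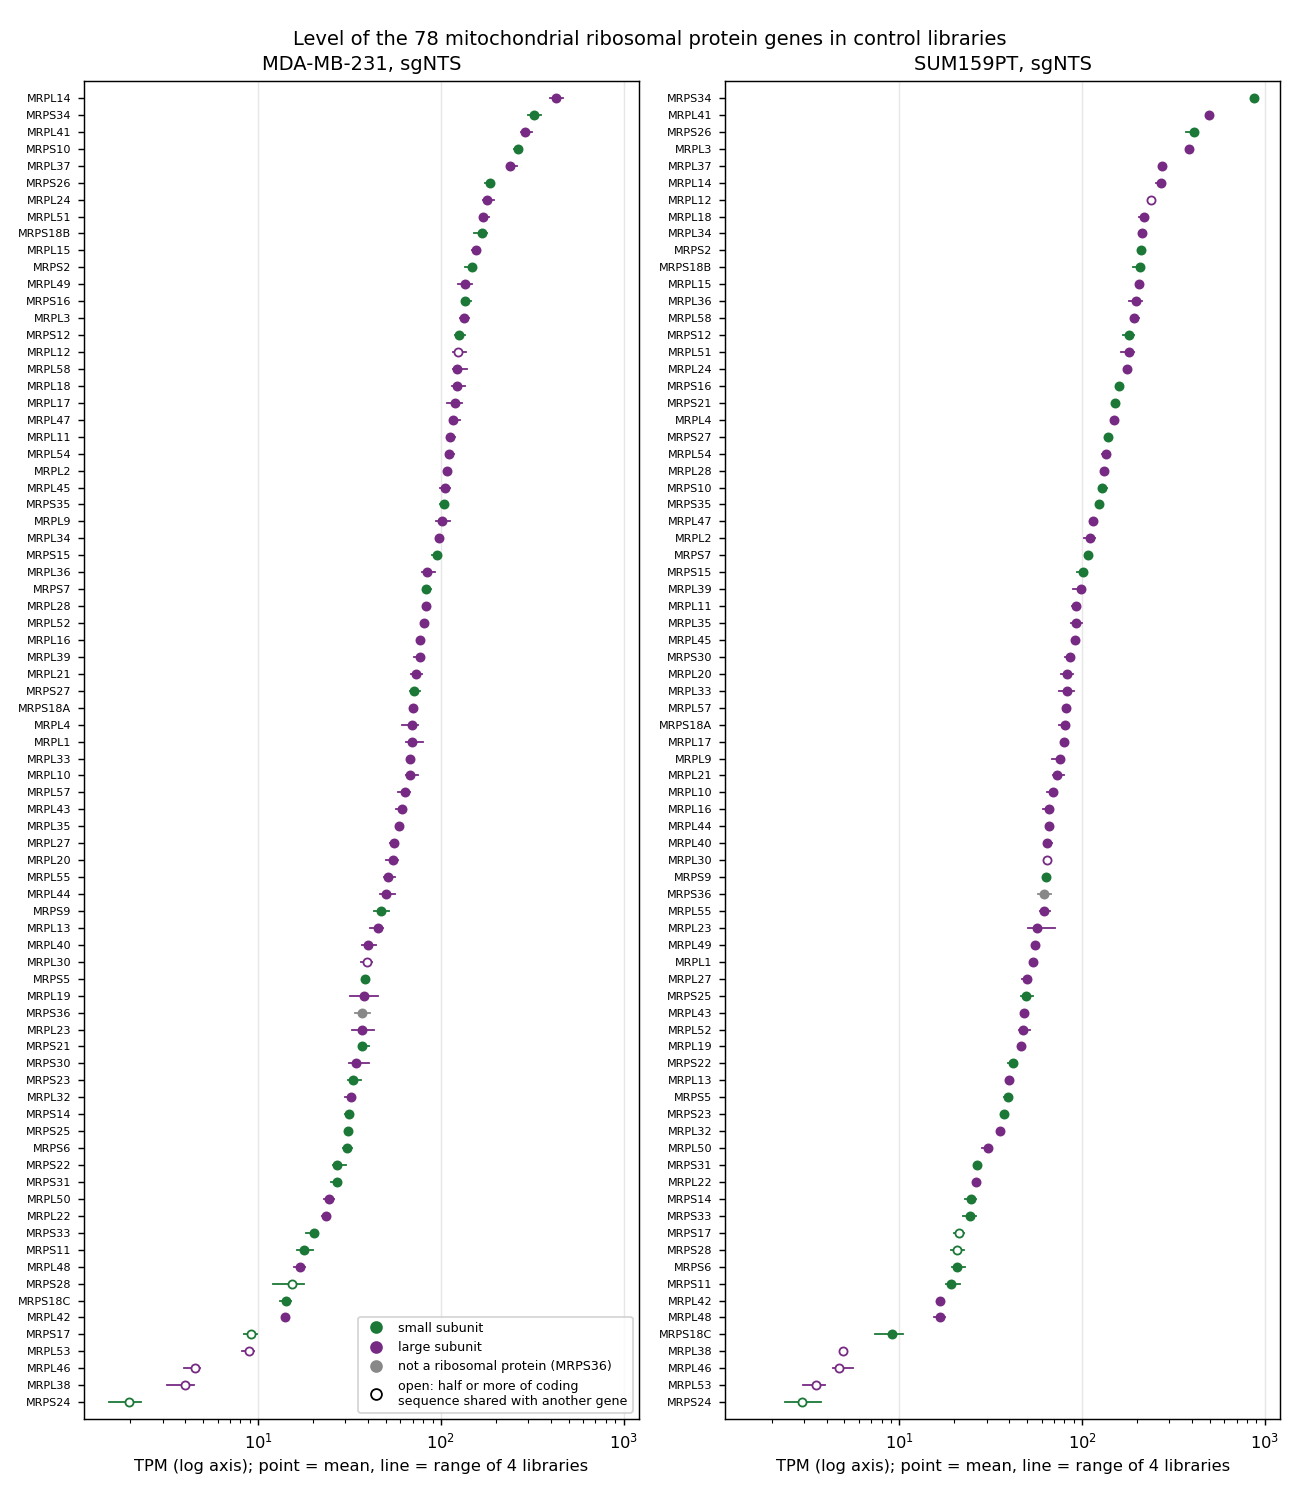
Level of each of the 78 members in the control libraries of MDA-MB-231 and SUM159PT, in TPM on a log axis, with the mean as a point and the range of 4 libraries as a line. The levels run from 1.95 to 425 TPM in MDA-MB-231 and from 2.95 to 873 TPM in SUM159PT, with MRPS24 lowest in both.

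In MDA-MB-231, more members rose than fell with sgYES1. Of 78, 26 were called higher and 4 lower, and 48 did not pass (edgeR quasi-likelihood test, Benjamini-Hochberg adjusted p under 0.05 over all genes). Among all 15427 genes tested, 20.8% were called higher and 22.1% lower, beside 33.3% and 5.13% of the members. The median log2 fold change of the members was 0.05, and that of all genes was 0.01. Among protein-coding genes with a mean between 9.19 and 150.0 CPM, a range around the members' own levels, 20.3% were higher and 28.1% lower. The changes were small: 2 members (2.56%), MRPS24 and MRPL53, moved past 1.5-fold, beside 10.6% of all genes tested. Among the protein-coding genes in that range of levels the share was 3.47%. Without the apart-standing sgNTS replicate 4, 22 of the 26 kept their call, and without sgNTS replicate 2, 16 did. The number of lower calls fell from 4 to 2 without sgYES1 replicate 3.

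MRPL2, a large subunit protein close to the catalytic centre, rose most among members with less than 50% of their coding bases shared. It read 81.02, 75.5, 76.2 and 71.5 CPM in sgNTS and 98.2, 97.4, 103 and 102 CPM in sgYES1 (log2 fold change 0.40, SE 0.04, adjusted p = 5.53e-06). Its groups did not overlap. MRPL40, a large subunit protein with no bacterial counterpart, read 24.1, 20.6, 20.1 and 22.4 against 25.9, 29.03, 29.2 and 29.5 CPM (log2 fold change 0.38, SE 0.07, adjusted p = 0.00047). The lowest sgYES1 library was above the highest control. MRPL36, counterpart of the smallest bacterial large subunit protein, read 31.96, 31.7, 32.6 and 33.1 against 40.8, 39.4, 41.7 and 40.8 CPM (log2 fold change 0.33, SE 0.05, adjusted p = 4.23e-05). It had the tightest groups of these 3.

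MRPL21, another large subunit protein, read 64.8, 55.2, 53.4 and 55.5 against 67.6, 69.5, 71.5 and 70.7 CPM (log2 fold change 0.29, SE 0.06, adjusted p = 0.000947). One control library, replicate 1, lay near the sgYES1 range and below it. MRPS7, a protein of the head of the small subunit, read 78.2, 76.8, 76.2 and 75.97 against 88.4, 89.98, 92.8 and 97.5 CPM (log2 fold change 0.26, SE 0.04, adjusted p = 0.000116). MRPS31, a small subunit protein of mitochondria, read 15.5, 16.3, 15.8 and 15.6 against 19.7, 18.6, 18.6 and 18.2 CPM (log2 fold change 0.25, SE 0.06, adjusted p = 0.00419). Neither of these overlapped between groups. The remaining higher calls had log2 fold changes from 0.12 to 0.29, apart from MRPS17, MRPL53 and MRPS24, described with the genes that share coding sequence. Over all 78 members, 21 had every sgYES1 library above every control, beside 18.8% of all genes tested, and 3 had every sgYES1 library below, beside 20.4%.

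Of the 4 members that fell in MDA-MB-231, MRPL42 fell most. This large subunit protein, at chr12:93467488-93516213 (hg38), read 67.8, 65.1, 61.6 and 61.4 CPM in sgNTS and 48.99, 53.3, 47.5 and 51.2 CPM in sgYES1 (log2 fold change -0.35, SE 0.05, adjusted p = 6.65e-05). All 4 sgYES1 libraries were below all controls. MRPS27, a small subunit protein with pentatricopeptide repeats, read 128, 126, 129 and 129 against 111, 116, 118 and 117 CPM (log2 fold change -0.15, SE 0.03, adjusted p = 0.00314), also without overlap. MRPL19 read 43.1, 47.5, 48.8 and 53.9 against 42.7, 44.6, 37.5 and 39.1 CPM (log2 fold change -0.24, SE 0.07, adjusted p = 0.0124). Its groups overlapped, and the call was lost without sgYES1 replicate 3 (adjusted p 0.0503). MRPS10 read 154, 155, 159 and 149.8 against 148, 141, 141 and 149.7 CPM (log2 fold change -0.09, SE 0.04, adjusted p = 0.049). That call was lost without sgNTS replicates 1, 2 or 3 or sgYES1 replicates 2 or 3 (adjusted p 0.0711 to 0.145), and with library totals as the only scaling it read -0.05 (adjusted p = 0.311). It also missed the threshold with size factors of DESeq2, the DESeq2 Wald test, a replicate block and 1 fit over 16 libraries (adjusted p 0.0507 to 0.106).

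**Figure D2:**
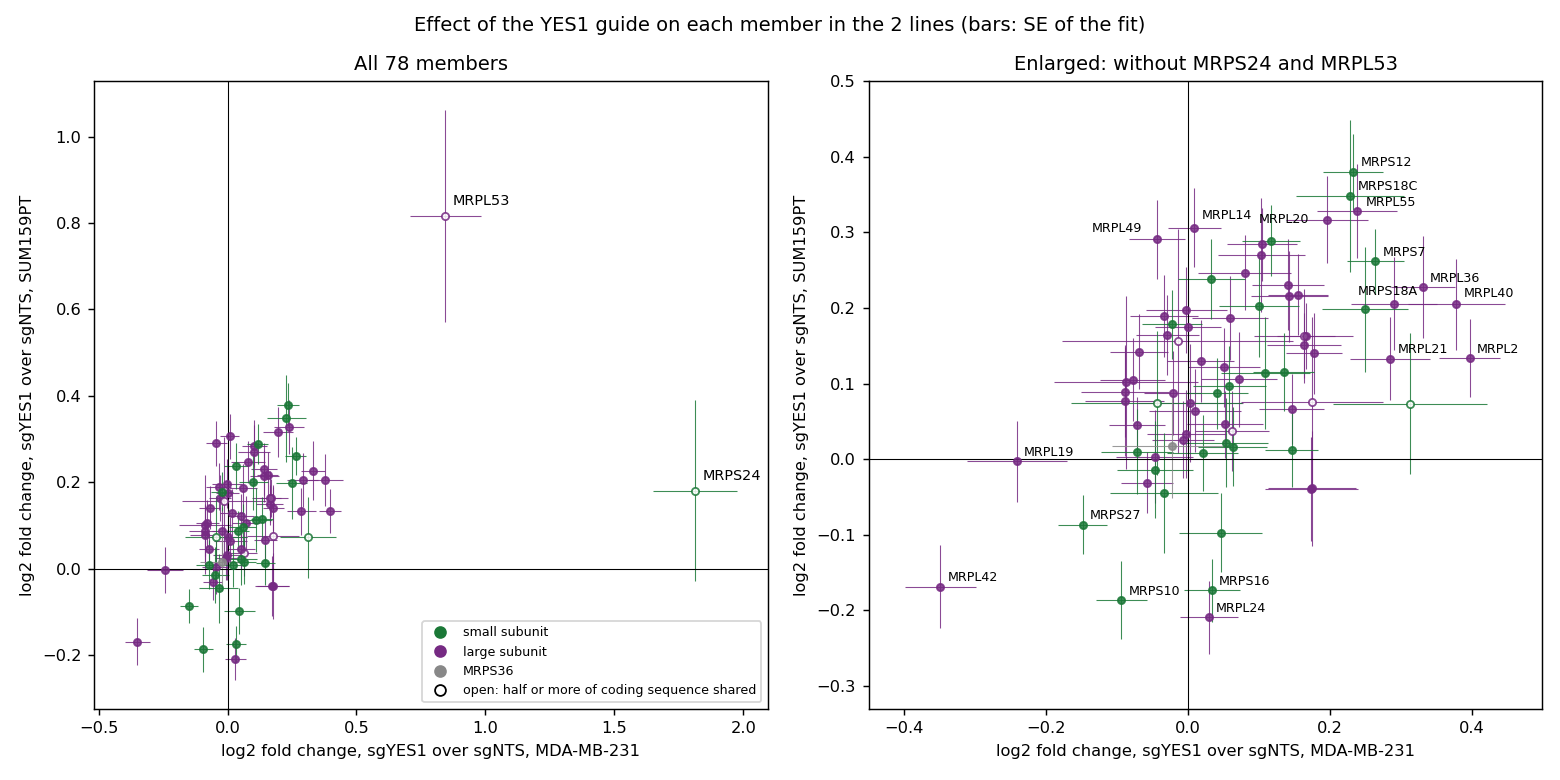
Log2 fold change of sgYES1 over sgNTS for each member in MDA-MB-231 (x) and SUM159PT (y), with bars for the SE of the fit. Colours mark the subunit and not the calls. The left panel shows all 78, where MRPS24 at 1.81 and 0.18 and MRPL53 at 0.84 and 0.82 lie outside the rest, and the right panel enlarges the others.

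In SUM159PT, 32 of 78 members rose, 4 fell and 42 did not pass. The share called higher was 41.0%, where 19.6% of all 14479 genes were called higher, and the share called lower was 5.13%, where 19.7% of all genes were. The members' median log2 fold change was 0.11, against -0.01 for all genes, and 66 of 78 had a positive sign. Genes at like levels were called higher in 22.3% and lower in 23.4% of cases. Leaving out each library in turn gave 25 to 34 higher and 3 to 5 lower calls, and 24 of the 32 held every time. By subunit, 25 of 51 large subunit members rose and 2 fell, and 7 of 26 small subunit members rose and 2 fell. In MDA-MB-231 those counts were 17 and 2 of the large and 9 and 2 of the small subunit. Whether the subunits differed was not tested.

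MRPS12, which forms part of the decoding centre, rose most in SUM159PT among members below that same limit of 50% shared coding bases. It read 101, 117, 105 and 115 CPM in sgNTS and 139, 145, 149.5 and 139 CPM in sgYES1 (log2 fold change 0.38, SE 0.05, adjusted p = 4.54e-06). The groups did not overlap. MRPL55, a large subunit protein, read 31.2, 35.9, 34.3 and 31.5 against 41.9, 42.8, 43.1 and 39.1 CPM (log2 fold change 0.33, SE 0.06, adjusted p = 0.000266). MRPL20, which binds the large ribosomal RNA, read 59.9, 71.2, 64.4 and 67.6 against 85.97, 83.2, 83.6 and 75.5 CPM (log2 fold change 0.32, SE 0.06, adjusted p = 0.000155). Both were separate between groups in this line.

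MRPS23, a small subunit protein of mitochondria, read 67.1, 67.6, 65.6 and 68.8 against 82.7, 79.9, 81.6 and 84.5 CPM in SUM159PT (log2 fold change 0.29, SE 0.05, adjusted p = 4.70e-05). MRPL34, a small basic protein of the large subunit, read 97.8, 107, 105 and 99.4 against 116, 132, 126 and 125 CPM (log2 fold change 0.28, SE 0.05, adjusted p = 8.67e-05). These groups did not overlap either. MRPL14 and MRPL49 also rose by about this size and are given with the differences between lines. The other higher calls had log2 fold changes from 0.13 to 0.35, apart from MRPL53. Over all 78 members, 28 had every sgYES1 library above every control, beside 17.7% of all genes tested, and 4 had every sgYES1 library below, beside 17.6%.

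The 4 members that fell in SUM159PT fell by less than 1.5-fold. MRPL24, a large subunit protein with a bacterial counterpart, read 83.2, 87.6, 85.5 and 84.1 CPM in sgNTS and 70.1, 74.1, 72.6 and 77.7 CPM in sgYES1 (log2 fold change -0.21, SE 0.05, adjusted p = 0.00156). MRPS16, a small subunit protein with a bacterial counterpart, read 123, 127, 127 and 129 against 111, 114, 113 and 112 CPM (log2 fold change -0.17, SE 0.04, adjusted p = 0.0022). Both had sgYES1 groups wholly below their controls. MRPS10, at chr6:42206801-42217865 (hg38), read 76.01, 75.6, 81.9 and 76.2 against 68.8, 63.8, 72.5 and 66.8 CPM (log2 fold change -0.19, SE 0.05, adjusted p = 0.00665), again without overlap. MRPL42 read 76.01, 78.3, 78.8 and 79.4 against 77.4, 66.6, 67.2 and 66.5 CPM (log2 fold change -0.17, SE 0.05, adjusted p = 0.0171). Its sgYES1 replicate 1 lay among the controls, and the call was lost without sgNTS replicate 4 or sgYES1 replicates 2, 3 or 4 (adjusted p 0.05 to 0.0611).

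Both lines shared 17 members that rose and 2 that fell, and none moved in opposite directions. Of the 13390 genes tested in both lines, 8.28% rose in both, 8.56% fell in both and 4.43% moved in opposite directions. The 17 were MRPL2, MRPL4, MRPL10, MRPL20, MRPL28, MRPL36, MRPL40, MRPL44, MRPL45, MRPL52, MRPL53, MRPL55, MRPS7, MRPS12, MRPS18A, MRPS18C and MRPS23, and the 2 were MRPL42 and MRPS10. A further 9 rose in MDA-MB-231 and not past the threshold in SUM159PT, 15 did the reverse, and 31 were called in neither line (36.6% of all genes). Across the 78 members the log2 fold changes of both lines correlated with Pearson r of 0.44 and Spearman rho of 0.49, and across the 70 with less shared coding sequence r was 0.51. Over all 13390 genes r was 0.38. These describe genes and not replicates. The number that rose in both was 11 without a filter on low counts and 22 with library totals as the only scaling. The number that fell in both was 1 with size factors of DESeq2, library totals, the DESeq2 Wald test or a replicate block. Under each of these settings MRPS10 missed the threshold in MDA-MB-231.

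MRPS7 rose by 0.26 on the log2 scale in both lines. In SUM159PT it read 97.4, 101, 104 and 102 CPM in sgNTS and 124, 121, 119 and 122 CPM in sgYES1 (log2 fold change 0.26, SE 0.04, adjusted p = 5.79e-05). The difference between lines was -0.01 with an interval of -0.13 to 0.10. MRPS12 in MDA-MB-231 read 74.5, 73.1, 74.1 and 74.7 against 85.5, 81.7, 89.4 and 91.5 CPM (log2 fold change 0.23, SE 0.04, adjusted p = 0.000476), and its groups did not overlap in either line. MRPL55 in MDA-MB-231 read 27.9, 26.5, 25.3 and 27.2 against 31.2, 31.7, 29.4 and 33.8 CPM (log2 fold change 0.24, SE 0.06, adjusted p = 0.00369), also without overlap. Each of these calls held when any library was left out.

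For another 4 shared rises, 1 line is given above and the other line here. MRPL20 in MDA-MB-231 read 46.1, 39.8, 42.3 and 41.6 against 46.6, 45.5, 51.8 and 50.6 CPM (log2 fold change 0.20, SE 0.06, adjusted p = 0.0132). Its control replicate 1 lay within the sgYES1 range, and the call was lost without sgNTS replicate 2 (adjusted p 0.0506). MRPL36 in SUM159PT read 70.95, 80.1, 76.4 and 84.4 against 99.1, 77.2, 90.3 and 98.3 CPM (log2 fold change 0.23, SE 0.07, adjusted p = 0.0104), with sgYES1 replicate 2 among the controls, and was lost without sgNTS replicate 1 (adjusted p 0.0542). MRPL40 in SUM159PT read 35.2, 38.3, 34.5 and 36.2 against 40.3, 40.7, 40.5 and 44.8 CPM (log2 fold change 0.20, SE 0.06, adjusted p = 0.00944), with no overlap. MRPS23 in MDA-MB-231 read 58.8, 56.5, 58.3 and 59.7 against 62.4, 61.4, 63.1 and 66.04 CPM (log2 fold change 0.12, SE 0.04, adjusted p = 0.0333), a call lost without sgNTS replicates 1, 2 or 3 or sgYES1 replicates 1, 3 or 4 (adjusted p 0.0512 to 0.104).

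**Figure D3:**
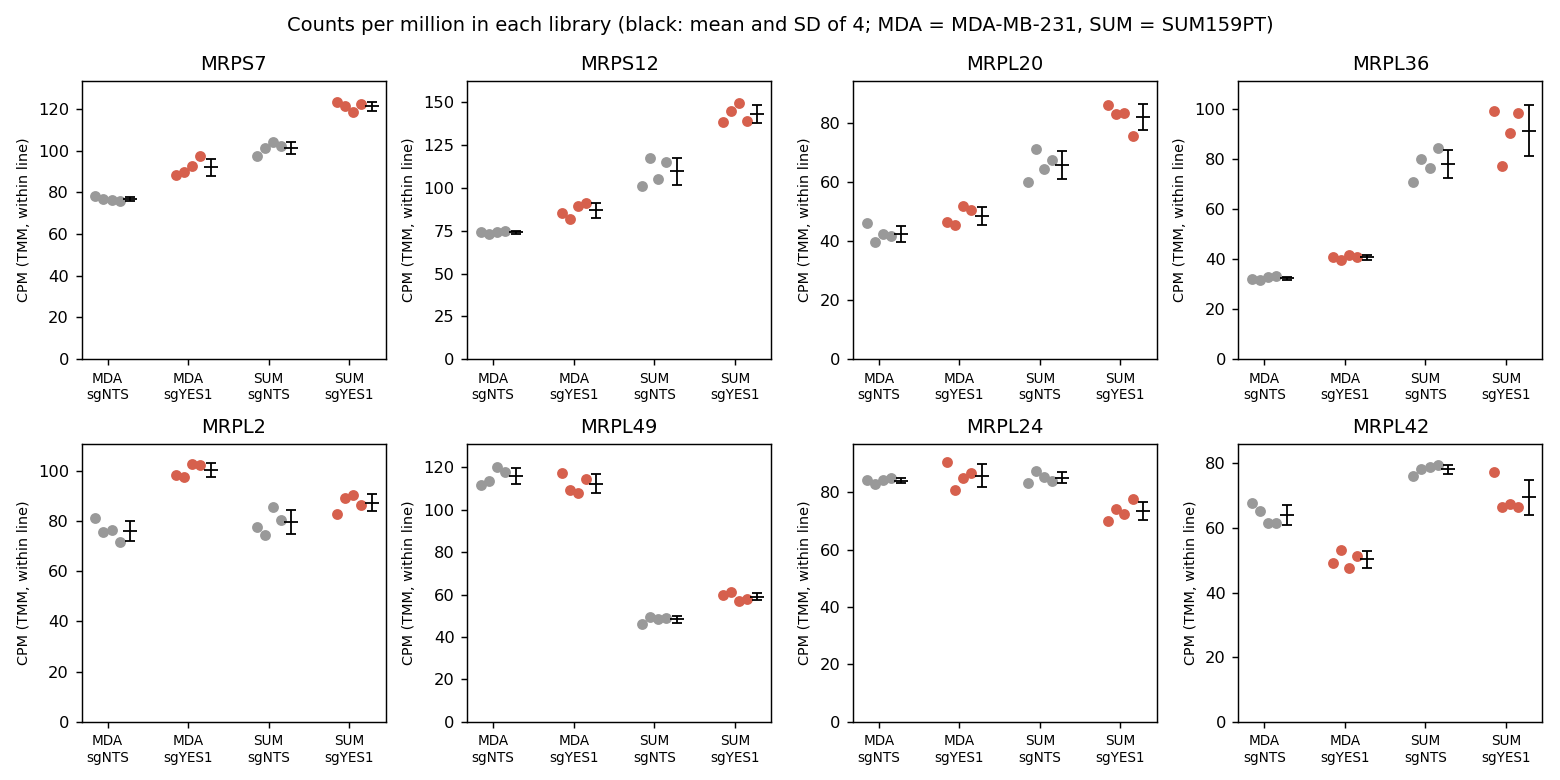
Library-scaled read counts (CPM) in each of the 16 libraries for members on which the results turn, with the mean and SD of 4 libraries in black and a CPM axis from 0. The panels are MRPS7, MRPS12, MRPL20, MRPL36, MRPL2, MRPL49, MRPL24 and MRPL42. MRPS7 and MRPS12 are higher in sgYES1 libraries of both lines, and MRPL42 has a lower mean in both. MRPL49 is higher and MRPL24 lower with sgYES1 in SUM159PT.

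The guide effect differed between the lines for 10 members, by the line and guide interaction in 1 fit of 16 libraries. The change in SUM159PT was more positive for 6 and more negative for 4, where 12.7% and 11.9% of all 16640 genes were called in those directions. The median difference of the members was 0.04. The 6 became 10 to 15 in fits without MDA-MB-231 sgNTS replicate 3 (11) or 4 (15), MDA-MB-231 sgYES1 replicate 2 (10) or 4 (13), SUM159PT sgNTS replicate 1 (10), 2 (15) or 3 (11), or SUM159PT sgYES1 replicate 1 (11), 2 (15) or 3 (12). All 4 in the other direction held in every such fit.

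MRPL49, a large subunit protein of mitochondria, differed most in the positive direction. In MDA-MB-231 it read 112, 114, 120.1 and 118 CPM in sgNTS and 117, 109, 108 and 115 CPM in sgYES1 (log2 fold change -0.04, adjusted p = 0.404). In SUM159PT it read 46.1, 49.4, 48.7 and 48.9 against 59.9, 61.3, 57.1 and 58.04 CPM (log2 fold change 0.29, adjusted p = 0.000133). It overlapped between groups in the first line and not in the second, with a difference of 0.32 (SE 0.06) and adjusted p = 0.000414.

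MRPL14 in MDA-MB-231 read 111, 115, 110.1 and 115 CPM in sgNTS and 115, 114, 108 and 117 CPM in sgYES1, so its groups overlapped (log2 fold change 0.01, adjusted p = 0.874). In SUM159PT it read 68.5, 72.3, 75.2 and 77.7 against 89.6, 92.05, 96.4 and 85.7 CPM, without overlap (log2 fold change 0.31, adjusted p = 8.44e-05). The difference was 0.29 (SE 0.07), adjusted p = 0.0023. In the same direction stood MRPL27, which lies close to the catalytic centre, with a log2 fold change of -0.03, adjusted p = 0.605 in MDA-MB-231 and 0.19, adjusted p = 0.00781 in SUM159PT. Its difference, 0.21 (SE 0.07) with adjusted p = 0.0253, was lost without MDA-MB-231 sgNTS replicate 1 (adjusted p 0.0516). MRPL35 read -0.07, adjusted p = 0.195 and 0.14, adjusted p = 0.0266, and its difference was 0.20 (SE 0.06) with adjusted p = 0.0253. MRPS2 read -0.02, adjusted p = 0.709 and 0.18, adjusted p = 0.00346, with a difference of 0.19 (SE 0.06) and adjusted p = 0.0288. MRPS23 rose in both lines, and its difference of 0.16 (SE 0.06) (adjusted p = 0.0497) was lost without MDA-MB-231 sgNTS replicate 1 or MDA-MB-231 sgYES1 replicates 1 or 3 or SUM159PT sgYES1 replicate 4 (adjusted p 0.0574 to 0.0817). The SUM159PT call of MRPL35 was lost without sgNTS replicates 1, 3 or 4 or sgYES1 replicate 3 (adjusted p 0.07 to 0.105).

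In the other direction, MRPL24 in MDA-MB-231 read 84.2, 82.8, 84.2 and 85.01 CPM in sgNTS and 90.5, 80.7, 85.1 and 86.8 CPM in sgYES1, with overlap (log2 fold change 0.03, adjusted p = 0.597), whereas it fell in SUM159PT. The difference was -0.25 (SE 0.06), adjusted p = 0.00415. MRPS16 showed the same form: 107, 104, 104 and 105 against 115, 105, 105 and 105 CPM in MDA-MB-231 (log2 fold change 0.03, adjusted p = 0.52), a fall in SUM159PT, and a difference of -0.22 (SE 0.06) with adjusted p = 0.00514. Replicate 1 was the highest of its sgYES1 libraries in MDA-MB-231. MRPL2 rose in both lines, by less in SUM159PT, where it read 77.5, 74.5, 85.6 and 80.2 against 82.8, 89.2, 90.4 and 86.4 CPM (log2 fold change 0.13, SE 0.05, adjusted p = 0.0438). Its groups overlapped there, and the SUM159PT call was lost without sgNTS replicates 1, 2 or 4 or sgYES1 replicates 2 or 3 (adjusted p 0.0803 to 0.14). The difference for MRPL2 was -0.28 (SE 0.07), adjusted p = 0.00434. The fourth, MRPS24, is given with the members that share coding sequence.

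Members with a set role in the particle are given by that role. MRPL10 and MRPL12 form the flexible stalk that recruits translation factors, and MRPL11 lies at its base. MRPL10 read 52.3, 50.6, 50.2 and 53.1 against 55.1, 57.6, 58.8 and 58.2 CPM in MDA-MB-231 (log2 fold change 0.16, SE 0.04, adjusted p = 0.0084) and 54.999, 54.7, 50.6 and 55.8 against 64.1, 64.7, 64.1 and 58.9 CPM in SUM159PT (log2 fold change 0.22, SE 0.05, adjusted p = 0.00263), without overlap in either. MRPL11 had log2 fold changes of -0.01, adjusted p = 0.923 in MDA-MB-231 and 0.03, adjusted p = 0.722 in SUM159PT. MRPL12, with 96.0% of its coding bases shared, had 0.16, adjusted p = 0.0732 and 0.16, adjusted p = 0.0411, and its SUM159PT call was lost without sgNTS replicates 1, 2 or 4 or sgYES1 replicates 2, 3 or 4 (adjusted p 0.0556 to 0.184). MRPL10 was called in both lines, MRPL12 in SUM159PT and MRPL11 in neither, and differences between these members were not tested. Without a filter on low counts MRPL10 missed the threshold in MDA-MB-231 (adjusted p = 0.0847), and in 1 fit over 16 libraries MRPL12 missed it in SUM159PT (adjusted p = 0.0796).

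MRPS18A, MRPS18B and MRPS18C descend from 1 bacterial small subunit family, and MRPS18A now sits in the large subunit. MRPS18C read 20.9, 20.95, 17.8 and 17.1 against 22.97, 24.1, 21.4 and 21.7 CPM in MDA-MB-231 (log2 fold change 0.23, SE 0.08, adjusted p = 0.0259) and 9.99, 13.4, 12.3 and 14.6 against 17.3, 14.9, 15.97 and 16.1 CPM in SUM159PT (log2 fold change 0.35, SE 0.10, adjusted p = 0.00852). Its groups did not overlap, but the MDA-MB-231 call was lost without sgNTS replicates 3 or 4 or sgYES1 replicates 1 or 2 (adjusted p 0.0558 to 0.0818). MRPS18A had log2 fold changes of 0.29, adjusted p = 0.00143 in MDA-MB-231 and 0.21, adjusted p = 0.0108 in SUM159PT. MRPS18B had 0.15, adjusted p = 0.00542 (0.0692 without a filter on low counts) and 0.01, adjusted p = 0.861, and its difference between lines was -0.15 (interval -0.28 to -0.01, adjusted p = 0.1).

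MRPL45, which anchors the ribosome to the inner membrane, read 49.3, 49.01, 50.1 and 49.5 against 56.2, 55.9, 56.8 and 55.1 CPM in MDA-MB-231 (log2 fold change 0.18, SE 0.04, adjusted p = 0.00211) and 45.5, 43.9, 43.7 and 43.6 against 50.5, 46.6, 48.4 and 49.1 CPM in SUM159PT (log2 fold change 0.14, SE 0.05, adjusted p = 0.0413). Neither line overlapped between groups, and the SUM159PT call was lost without sgNTS replicates 1, 2, 3 or 4 or sgYES1 replicates 1, 3 or 4 (adjusted p 0.0513 to 0.106). MRPL44, a large subunit protein with a ribonuclease-like fold, had log2 fold changes of 0.14, adjusted p = 0.0469 and 0.22, adjusted p = 0.00713, the first lost without sgNTS replicates 2 or 3 or sgYES1 replicates 1, 2, 3 or 4 (adjusted p 0.0586 to 0.137). MRPL58, which frees peptides from stalled ribosomes, had 0.05, adjusted p = 0.442 and 0.12, adjusted p = 0.0711. MRPS36, of the 2-oxoglutarate dehydrogenase complex, had -0.02, adjusted p = 0.851 (interval -0.20 to 0.16) and 0.02, adjusted p = 0.866 (interval -0.12 to 0.16).

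The largest fold changes belonged to members with shared coding sequence. MRPS24, a small subunit protein at chr7:43866558-43869893 (hg38), read 1.17, 1.43, 1.49 and 1.54 CPM in MDA-MB-231 sgNTS, from 26 to 36 counts a library, and 5.15, 4.27, 5.98 and 4.37 CPM in sgYES1, from 74 to 123 counts. Every sgYES1 library was above every control, a rise of 3.51-fold (log2 fold change 1.81, SE 0.16, adjusted p = 8.75e-07). In SUM159PT it read 2.72, 1.92, 1.76 and 2.32 against 2.22, 1.78, 2.96 and 2.92 CPM, with overlap (log2 fold change 0.18, adjusted p = 0.523), and the difference between lines was -1.64 (SE 0.27) with adjusted p = 6.15e-05. The gene with the largest exon overlap with MRPS24, the read-through gene URGCP-MRPS24, had at most 0.208 CPM in any library.

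MRPL53 lies inside the same locus as CCDC142, with 100% of its coding bases shared. It read 3.495, 3.45, 3.04 and 3.297 against 6.05, 4.68, 7.34 and 5.79 CPM in MDA-MB-231 (log2 fold change 0.84, SE 0.14, adjusted p = 0.000207) and 1.43, 1.14, 1.27 and 1.501 against 1.55, 3.29, 2.01 and 2.73 CPM in SUM159PT (log2 fold change 0.82, SE 0.25, adjusted p = 0.0109). The groups did not overlap in either line. CCDC142 itself was higher with sgYES1, from 12.4 ± 0.613 to 22.8 ± 1.53 CPM in MDA-MB-231 (SD, n = 4, log2 fold change 0.88, adjusted p = 3.44e-07) and from 5.98 ± 1.14 to 8.92 ± 1.91 CPM in SUM159PT (log2 fold change 0.58, adjusted p = 0.00503). Its part in the reading of MRPL53 was not tested. MRPS17 read 6.08, 5.25, 4.99 and 5.48 against 5.77, 7.56, 6.81 and 7.04 CPM in MDA-MB-231 (log2 fold change 0.31, SE 0.11, adjusted p = 0.0311), with overlap, and was lost without sgNTS replicates 2 or 3 or sgYES1 replicates 2, 3 or 4 (adjusted p 0.0593 to 0.091). Without all 8 such members, 23 of 70 rose and 4 fell in MDA-MB-231, and 30 rose and 4 fell in SUM159PT.

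Between the control libraries of the lines, most members stood higher in SUM159PT. Of 78, 54 were higher and 15 lower there, in the contrast of the sgNTS groups within the fit over all 16 libraries, where 40.5% and 41.3% of all 16640 genes were called in those directions. In all, 81.8% of those genes were called. The members' median log2 fold change was 0.35, against -0.01 for all genes. Of the members, 30 (38.5%) differed by more than 1.5-fold, beside 56.8% of all genes tested. Among protein-coding genes at like levels the share was 46.1%. Leaving out each library in turn gave 49 to 54 higher and 15 or 16 lower calls. Line, medium and table cannot be told apart in this comparison.

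MRPS21, a small subunit protein of the platform region, differed most. It read 17.02, 16.7, 16.6 and 17.001 CPM in MDA-MB-231 and 69.01, 71.2, 68.1 and 73.8 CPM in SUM159PT when scaled within each line. In the fit over all 16 libraries, which scales them together, it was 4.302-fold higher (log2 fold change 2.11, SE 0.05, adjusted p = 3.00e-22). The 4 libraries of 1 line lay far from those of the other. MRPL3, a core protein of the large subunit, was 3.02-fold higher (log2 fold change 1.60), MRPS34 2.85-fold (1.51) and MRPS30 2.61-fold (1.39). MRPL36, MRPS17, MRPS26 and MRPL34 followed, with log2 fold changes from 1.21 to 1.31.

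Lower in SUM159PT was MRPL49, at 2.34-fold (log2 fold change -1.22, adjusted p = 7.94e-19). MRPS10 was 1.95-fold lower (log2 fold change -0.96, adjusted p = 1.14e-16), and MRPL52 1.61-fold lower (-0.69). MRPL14 (-0.58), MRPS18C (-0.56), MRPL17 (-0.50), MRPS6 (-0.48) and MRPL9 (-0.35) completed the 8 lowest at 5 CPM or more. MRPL53, at a lower level, read -1.27 (SE 0.21). By subunit, 21 of 26 small subunit members were higher and 4 lower, and 32 of 51 large subunit members were higher and 11 lower. MRPS12 stood at 0.61 (SE 0.05), MRPL12 at 1.01 (SE 0.07), MRPL45 at -0.13 (SE 0.04) and MRPL58 at 0.72 (SE 0.05) on this log2 scale.

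**Figure D4:**
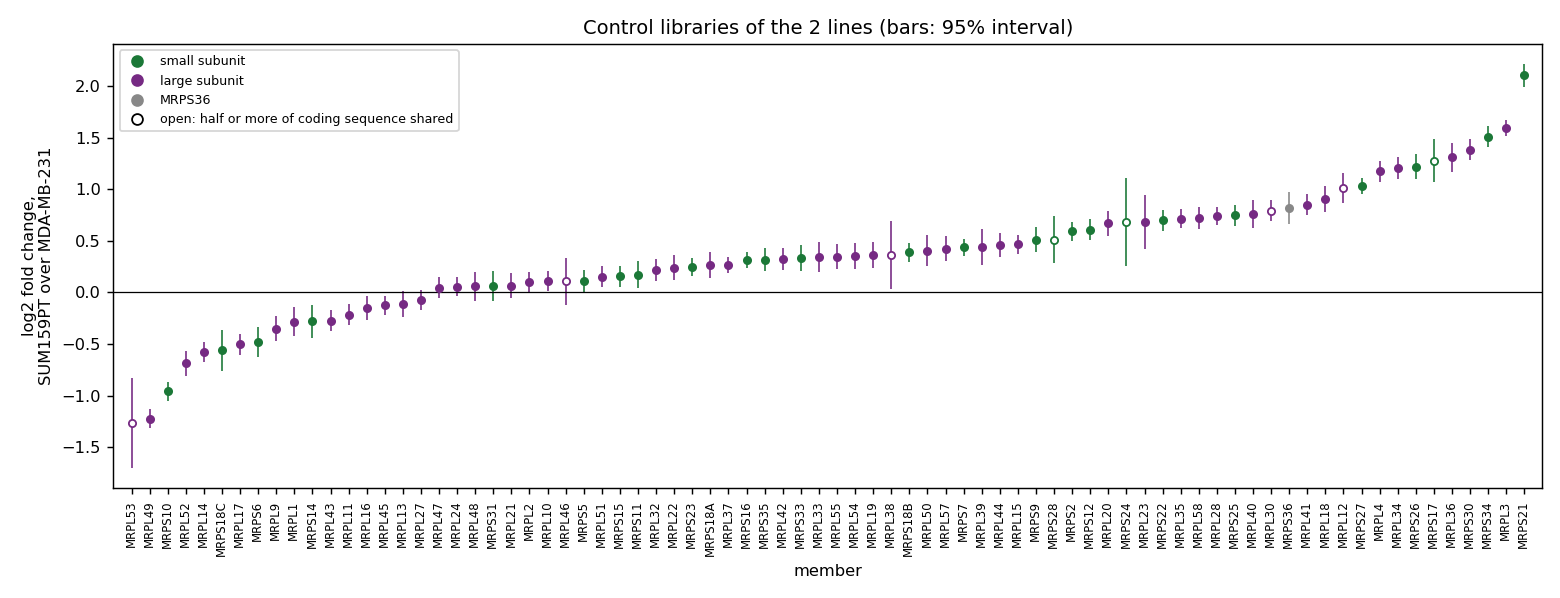
Log2 fold change of SUM159PT over MDA-MB-231 in control libraries for each member, ordered by size, with 95% intervals and colours for the subunit. The values run from -1.27 for MRPL53 to 2.11 for MRPS21, and open symbols mark the members with at least 50% of coding bases shared.

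The members together took a small part of the counts. Their share was 0.398% to 0.409% in MDA-MB-231 sgNTS libraries and 0.420% to 0.439% in sgYES1, and 0.527% to 0.547% and 0.583% to 0.593% in SUM159PT. These shares did not overlap between guides in either line. After TMM scaling the sums were 4043 to 4181 and 4163 to 4345 CPM in MDA-MB-231, which overlap, and 5314 to 5531 and 5783 to 5864 CPM in SUM159PT, which do not. With library totals as the only scaling, 28 members rose and 3 fell in MDA-MB-231, and 37 rose and 4 fell in SUM159PT. Under that scaling the median of all genes was 0.05 and 0.02. Calls among all genes moved too, from 3205 higher and 3402 lower to 3956 and 2661 in MDA-MB-231. In SUM159PT they moved from 2842 and 2859 to 3211 and 2454.

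Other genes of mitochondrial translation were read from lists of known members. Beside each list's counts stand the shares of all genes tested, 20.8% higher and 22.1% lower in MDA-MB-231 and 19.6% and 19.7% in SUM159PT. Of 29 genes for building the mitochondrial ribosome, 5 rose (17.2%) and 2 fell (6.90%) in MDA-MB-231, and 11 rose (37.9%) and 2 fell (6.90%) in SUM159PT. DDX28, a helicase of large subunit assembly, had mean CPM of 11.8 ± 1.18 and 17.4 ± 1.52 in MDA-MB-231 (log2 fold change 0.56, SE 0.09, adjusted p = 0.000129) and 37.6 ± 0.985 and 47.8 ± 1.86 in SUM159PT (log2 fold change 0.34, SE 0.06, adjusted p = 4.57e-05). TRUB2, a pseudouridine synthase of mitochondria, rose in both lines, by 0.29, adjusted p = 0.000118 and 0.42, adjusted p = 3.01e-07 on the log2 scale. MTG2, a GTPase of the large subunit, also rose in both (0.26, adjusted p = 5.41e-05, and 0.24, adjusted p = 0.000596). TFB1M, the methyltransferase of the small ribosomal RNA, fell in SUM159PT from 22.01 ± 1.88 to 14.1 ± 1.23 CPM (log2 fold change -0.64, SE 0.09, adjusted p = 5.25e-06), and RPUSD3 fell there by -0.34, adjusted p = 2.93e-05. The lower calls in MDA-MB-231 numbered 5 without sgNTS replicate 4 and 1 without sgNTS replicate 2 or 3 or sgYES1 replicate 2.

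Of 20 translation factors, 3 rose (15%) and none fell in MDA-MB-231, and 5 rose (25%) and 2 fell (10%) in SUM159PT. TACO1, a translational activator of COX1, rose in both lines (0.26, adjusted p = 0.000542 and 0.36, adjusted p = 1.17e-05), MRRF, the recycling factor, in MDA-MB-231 (0.29, adjusted p = 0.000453), and LETM1 and GFM1, an elongation factor, in SUM159PT (0.21, adjusted p = 0.0004 and 0.20, adjusted p = 0.0022). LRPPRC, which stabilises mitochondrial messenger RNA, fell in SUM159PT (-0.16, adjusted p = 0.00345). The falls there numbered 4 without sgYES1 replicate 1, and 8 rose in MDA-MB-231 when only library totals were used for scaling. Under that scaling, 3956 of all 15427 genes tested rose in MDA-MB-231. Of the 5 ribosomal proteins without an MRP symbol, none was called in MDA-MB-231 and AURKAIP1 rose in SUM159PT (0.21, adjusted p = 0.00149).

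Among 19 genes of mitochondrial transcription and RNA processing, 7 rose (36.8%) and 3 fell (15.8%) in MDA-MB-231 and 8 rose (42.1%) and 1 fell (5.26%) in SUM159PT. TRMT10C, of the ribonuclease P that frees transfer RNAs, rose in SUM159PT (log2 fold change 0.51, SE 0.07, adjusted p = 1.32e-05). ELAC2, which cuts their other end, fell in MDA-MB-231 (-0.14, adjusted p = 0.00364) and rose in SUM159PT (0.26, adjusted p = 2.87e-05), a difference of 0.39, adjusted p = 2.95e-06. The rises in MDA-MB-231 numbered 3 or 4 without sgNTS replicate 2, 3 or 4 (4 each) or sgYES1 replicate 1 (3), 3 or 4 (4 each), and the fall in SUM159PT was lost when sgNTS replicate 2, sgNTS replicate 3, sgYES1 replicate 1 or sgYES1 replicate 3 was left out.

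The mitochondrial genome encodes the RNAs of the particle itself. MT-RNR1, the small ribosomal RNA, had 194 to 372 CPM in MDA-MB-231 sgNTS and 363 to 458 CPM in sgYES1 (log2 fold change 0.47, SE 0.14, adjusted p = 0.015), and 330.01 to 376 and 500.2 to 551 CPM in SUM159PT (log2 fold change 0.59, SE 0.04, adjusted p = 1.43e-09). MT-RNR2, the large one, had log2 fold changes of 0.46, adjusted p = 0.0407 and 0.33, adjusted p = 1.58e-07. For both RNAs the lowest control library in MDA-MB-231 was replicate 4, the one with 2.34% mitochondrial counts. Without it the log2 fold changes there were 0.31 for MT-RNR1 (adjusted p = 0.00222) and 0.27 for MT-RNR2 (adjusted p = 0.0124), and the median of the 15 encoded genes went from 0.12 to -0.07. Without sgNTS replicate 1 that median was 0.27, without replicate 2 it was 0.18, and without sgYES1 replicate 2 it was 0.03. In MDA-MB-231 the call of MT-RNR1 was lost without sgYES1 replicate 3 (adjusted p = 0.0505), and that of MT-RNR2 without sgNTS replicate 3 or sgYES1 replicate 2, 3 or 4 or with the DESeq2 Wald test (highest adjusted p = 0.112). Of the 13 encoded messenger RNAs, none was called in MDA-MB-231, and in SUM159PT MT-ND1 and MT-ND5 rose while MT-CO1 and MT-ND4 fell. In 1 fit over 16 libraries those 4 calls were lost (adjusted p = 0.172, 0.419, 0.415 and 0.592), as was that of MT-RNR2 in SUM159PT (adjusted p = 0.0553), and the MT-ND5 call was also lost without SUM159PT sgNTS replicate 4. Without a filter on low counts 7 of the 15 encoded genes were called higher in MDA-MB-231. Libraries were made from poly-A RNA, which limits what ribosomal RNA counts show.

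Nuclear subunits of the oxidative phosphorylation complexes had other counts. In SUM159PT 1 of 76 rose (1.32%, beside 19.6% of all genes tested) and 26 fell (34.2%, beside 19.7%), with a median log2 fold change of -0.09. SDHA, the catalytic subunit of complex II, went from 511 ± 7.46 to 427 ± 19.97 CPM there (log2 fold change -0.26, SE 0.04, adjusted p = 1.72e-05), and UQCRC2 of complex III (-0.25, adjusted p = 0.000107) and ATP5F1A of ATP synthase (-0.20, adjusted p = 0.000227) also fell. In MDA-MB-231 7 of 75 rose (9.33%, beside 20.8%) and 13 fell (17.3%, beside 22.1%), with a median of -0.03, and SDHA (-0.26, adjusted p = 7.09e-05) and COX8A (-0.27, adjusted p = 2.96e-05) fell. With library totals as the only scaling, the MDA-MB-231 counts were 13 higher and 7 lower, and those of SUM159PT 2 and 23. Among all genes that scaling gave 3956 higher and 2661 lower in MDA-MB-231 and 3211 and 2454 in SUM159PT. The MDA-MB-231 rises numbered 4 without sgNTS replicate 3 and 3 without sgYES1 replicate 4, and the falls 8 without sgYES1 replicate 1. Whether this list and the ribosomal members differ was not tested.

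**Figure D5:**
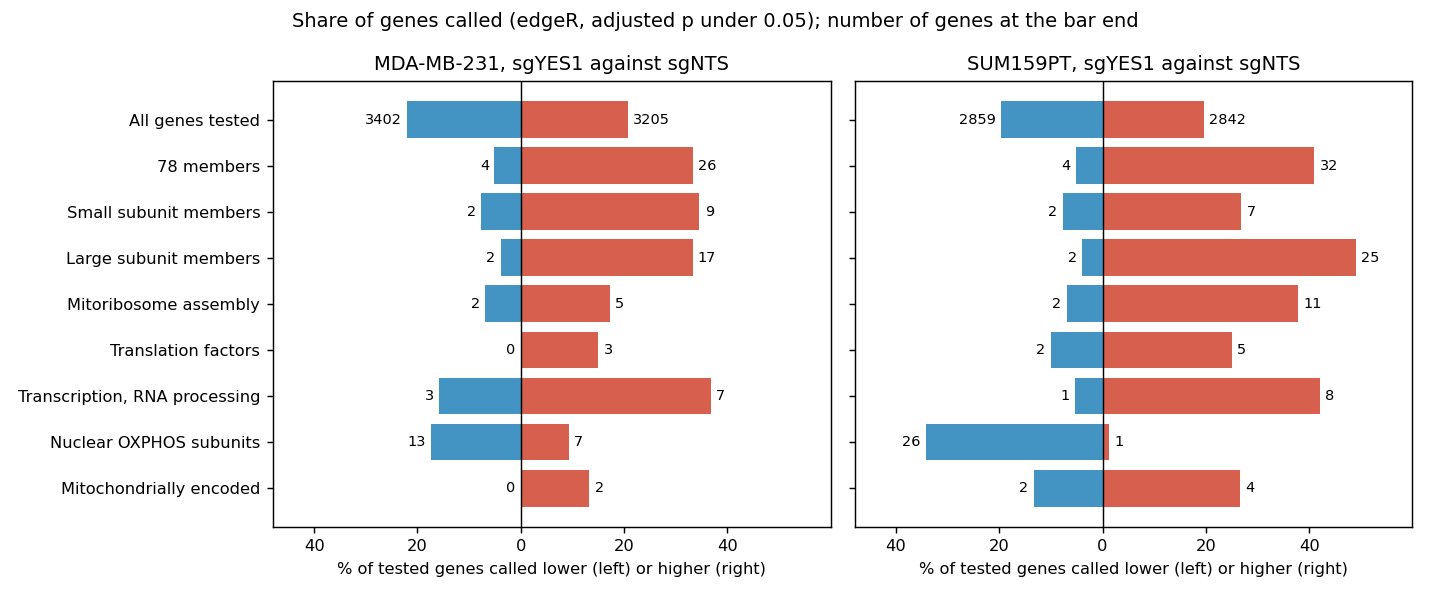
Share of tested genes called higher (right) or lower (left) with sgYES1 in each line, in percent. The number of genes stands at each bar's end. Bars stand for all genes, the members and their subunits. Further bars stand for ribosome assembly, translation factors, transcription and RNA processing, nuclear oxidative phosphorylation subunits and mitochondrially encoded genes. The members' bars reach 33.3% and 41.0% on the higher side and 5.13% on the lower side in both lines.

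Of 11 regulators of nuclear genes for mitochondria, 3 rose (27.3%) and 2 fell (18.2%) in MDA-MB-231, and 1 rose (9.09%) and 3 fell (27.3%) in SUM159PT. MYC, a transcription factor that binds the CACGTG box, rose in MDA-MB-231 from 197 ± 5.55 to 233 ± 10.5 CPM (log2 fold change 0.24, SE 0.04, adjusted p = 0.000189) and fell in SUM159PT from 1098 ± 146 to 911 ± 17.9 CPM (log2 fold change -0.27, SE 0.06, adjusted p = 0.00138). The difference between lines was -0.52, adjusted p = 7.15e-05. PPARGC1A, a coactivator of mitochondrial genes, rose in MDA-MB-231 (0.94, adjusted p = 4.00e-05) and fell in SUM159PT (-0.47, adjusted p = 0.000374), at means of 3.23 ± 0.5698 and 16.4 ± 0.643 CPM in controls. ESRRA, its nuclear receptor partner, rose in both lines (0.29, adjusted p = 3.70e-05 and 0.13, adjusted p = 0.0287), the second lost when 1 of 4 libraries was left out, sgNTS replicate 1 or 2 or sgYES1 replicate 2 or 3 (highest adjusted p = 0.111). The 2 falls in MDA-MB-231, SP1 and NRF1, were each lost in several such fits, and neither passed with library totals as the only scaling.

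The guide effect was also counted by promoter motif, to be read beside the 20.8% higher and 22.1% lower among all genes in MDA-MB-231 and the 19.6% and 19.7% in SUM159PT. Of the 30 members with the ETS and GABP core, 12 rose and 1 fell in MDA-MB-231, and 13 rose and 2 fell in SUM159PT. Of the 39 with a promoter that lacks it, 11 rose and 3 fell in MDA-MB-231, and 15 rose and 2 fell in SUM159PT. Of the 10 with the YY1 core, 4 rose and 1 fell in MDA-MB-231 and 3 rose and 1 fell in SUM159PT. MRPS10, which holds both cores, was called lower in both lines, and so was MRPL42, which holds neither. The MDA-MB-231 call of MRPS10 and the SUM159PT call of MRPL42 were each lost in several fits. The difference between members with and without a motif was not tested.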

How the data were processed

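For each line the authors deposited a table of gene counts, whole numbers without normalization. HISAT2 2.0.5, hg38 and featureCounts 1.5.0-p3 are named in the submitters' processing notes. Strand and multiple-match settings were not given in the sources used here. Overlapping, antisense and paralogous genes are therefore uncertain. Each table held 58735 genes, all with the start and end of GENCODE 29. Columns were matched to samples by guide and replicate number.

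The test was edgeR's quasi-likelihood F-test (edgeR 4.0.16, R 4.3.3), two-sided, with TMM scaling and the filterByExpr filter (smallest count 10, total 15), with Benjamini-Hochberg adjustment over all genes tested and calls under 0.05. Each line was fitted on its 8 libraries. The difference between lines and the contrast of controls came from 1 fit over 16 libraries. CPM is TMM-scaled within a line, and TPM uses the tables' gene lengths. Errors are SD of 4 libraries or SE of the fit. No pair of libraries was alike within counting noise (chi-square per degree of freedom at least 2.33), and each counted as 1 replicate. The fits were tested on simulated data.

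Members and lists were chosen with earlier results of these data known. Of 207 list symbols, 206 matched. Named members are those called with at least 5 CPM and the 8 highest or 8 lowest log2 fold changes of a comparison, all called for the difference between lines, the 4 highest and 4 lowest by TPM, and members of set role. Other lists give up to 4 genes with the smallest p in a line. ESRRA, ELAC2, MT-ND1, MT-ND5, MT-CO1, MT-ND4 and the neighbours of members were named after their values were seen wherever that rule does not reach them. Alternatives were DESeq2 1.42.0 size factors in edgeR, library totals, the DESeq2 Wald test, no filter, a replicate block, 1 fit over 16 libraries, adjusted p under 0.01 and leaving out each library.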

Additional observations from a re-analysis of the deposited data

Results flagged for a closer look

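Of 188 group values of 47 named members, 13 had 1 library far from the other 3 of its group, by the gap to the nearest library as a share of the group's range (above Dixon's 95% critical value). Chance flags about 1 in 20 groups. In SUM159PT sgYES1, MRPL10 read 58.9 CPM in replicate 4 (others 64.1 to 64.7), MRPL27 read 48.0 in replicate 3 (49.1 to 49.2), MRPL40 read 44.8 in replicate 4 (40.3 to 40.7) and MRPL42 read 77.4 in replicate 1 (66.5 to 67.2). In SUM159PT sgNTS, MRPL11 read 62.9 CPM in replicate 1 (67.4 to 68.2), MRPL45 read 45.5 in replicate 1 (43.6 to 43.9), MRPL46 read 10.2 in replicate 3 (7.93 to 8.17) and MRPS10 read 81.9 in replicate 3 (75.6 to 76.2).

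In MDA-MB-231 sgNTS, MRPL11 read 82.4 CPM in replicate 1 (others 77.9 to 78.7) and MRPS34 read 93.7 in replicate 2 (98.9 to 99.5). In MDA-MB-231 sgYES1, MRPL40 read 25.9 CPM in replicate 1 (29.03 to 29.5), MRPS16 read 115 in replicate 1 (104.6 to 105.1) and MRPS2 read 94.1 in replicate 2 (99.97 to 100.8).

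The guide effect differed between lines for 10 members by the interaction term of edgeR, with these log2 differences, SUM159PT minus MDA-MB-231: MRPL2 -0.28, MRPL14 0.29, MRPL24 -0.25, MRPL27 0.21, MRPL35 0.20, MRPL49 0.32, MRPS2 0.19, MRPS16 -0.22, MRPS23 0.16 and MRPS24 -1.64. By direction, 7.69% of the members were called more positive in SUM159PT and 5.13% more negative, beside 12.7% and 11.9% of all 16640 genes.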

How the results depend on the processing

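Every named member that was called kept its direction. Those that changed sign did so in 13 effects, none called under either setting. Library totals made the MDA-MB-231 log2 fold changes of MRPL11 0.0394, MRPL27 0.0118, MRPL49 0.00222, MRPS2 0.0234 and MRPS36 0.0224, and no filter made that of MRPL14 -0.0192. The MRPL12 difference between lines became 0.0139 with DESeq2's size factors, 0.0158 with its Wald test and 0.00392 without a filter. In MDA-MB-231, adjusted p under 0.01 left 15 higher and 2 lower members, no filter on low counts left 16 higher with a median log2 fold change of 0.0245, and library totals gave a median of 0.10 and moved the share of higher among all calls from 48.5% to 59.8%. In SUM159PT, library totals gave a median of 0.14 and moved that share from 49.9% to 56.7%. For the difference between lines, adjusted p under 0.01 left 2 higher members and 2500 genes in all, size factors of DESeq2 within edgeR gave 12 higher with a median of 0.0621, and the DESeq2 Wald test gave 14 with a median of 0.0624. Without a filter the median between control libraries was 0.31. The causes were not tested. DESeq2's test kept 21 of the 26 higher calls in MDA-MB-231 and 32 of 32 in SUM159PT.

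Leaving out 1 library at a time gave 16 to 24 higher and 2 to 4 lower members in MDA-MB-231 (median 0.04 to 0.07), 25 to 34 and 3 to 5 in SUM159PT (0.10 to 0.13), 5 to 15 and 4 to 5 for the difference (0.0293 to 0.0927), and 49 to 54 and 15 to 16 between controls (0.30 to 0.34). All genes called ranged over 5778 to 6582, 4880 to 5654, 3706 to 4365 and 13433 to 13846. Effects that changed sign, all uncalled, ranged over -0.0339 to 0.0204 (MRPL11), -0.00844 to 0.0331 (MRPL14), -0.00162 to 0.0471 (MRPS16) and -0.0862 to 0.0217 (MRPS36) in MDA-MB-231, -0.00149 to 0.0504 (MRPL11), -0.0267 to 0.0327 (MRPS18B) and -0.0103 to 0.063 (MRPS36) in SUM159PT, and -0.0439 to 0.0918 (MRPL12), -0.0469 to 0.0182 (MRPL45) and -0.0172 to 0.124 (MRPS36) for the difference. Of the calls, 15 of 26 rises and 2 of 4 falls in MDA-MB-231 held every time, as did 24 of 32 and 3 of 4 in SUM159PT.

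With replicate number as a block, 20 members rose and 3 fell in MDA-MB-231, 34 rose and 4 fell in SUM159PT, 6 and 4 differed, and 53 and 15 stood apart between controls. Same-numbered libraries correlated at -0.35 to 0.15 in MDA-MB-231 and -0.03 to 0.14 in SUM159PT. These values do not settle whether the numbers pair the samples. The counts without the 8 members that share coding sequence were chosen after seeing the data. Members near 1 to 5 CPM are limited by depth.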
